A study of Mus musculus with 6 samples.

Results

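Leucine, isoleucine and valine, the branched-chain amino acids (BCAA), are broken down mostly inside mitochondria. BCAT2 moves their amino group to 2-oxoglutarate, and the branched-chain 2-oxo acid dehydrogenase complex (BCKDH) then commits the resulting keto acids to oxidation in an irreversible step. That complex is switched off when the kinase BCKDK phosphorylates its E1 alpha subunit and switched on again by the phosphatase PPM1K. Downstream, each amino acid has its own branch: leucine runs through isovaleryl-CoA dehydrogenase (IVD) and methylcrotonyl-CoA carboxylase (MCCC1 and MCCC2). Heart muscle oxidises these keto acids, and in mouse hearts the pathway is known to be repressed under pressure overload and in failure.

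The 9 genes described here encode those enzymes and were taken by symbol (Bcat2, Bckdha, Bckdhb, Dbt, Ppm1k, Bckdk, Ivd, Mccc1 and Mccc2) from the 54532 genes of the deposited table. All 9 had a mean of at least 1 FPKM (fragments per kilobase of gene, scaled by a factor of each library) and were among the 12144 genes tested. Hearts of 3 mice carrying floxed Ythdc1 alleles (Ythdc1flox/flox, flox control) were compared with hearts of 3 Ythdc1-CKO mice, each given normal chow for 15 days; Ythdc1 encodes a nuclear reader of N6-methyladenosine in RNA. The series text calls the knockout HKO, and the labels name neither the Cre driver, the deleted exons, the age nor the sex. The comparison asks how cardiac transcripts differ when Ythdc1 is deleted.

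Ythdc1 itself measured 4.31, 3.64 and 4.10 FPKM in flox control libraries 1, 2 and 3, and 2.39, 2.57 and 2.34 FPKM in those of CKO 1, 2 and 3 (the order of all values below), a log2 fold change of -0.54 (SE 0.09, limma adjusted p = 0.0150). By exact permutation (two-sided) p was 0.1, the floor for 3 against 3 libraries. Reads assigned to genes numbered 17434296 to 19360428 per library. CKO 3 held 4037 Xist reads against 0 to 5 elsewhere, and 33 reads of Y-linked Ddx3y against 1004 to 1495. Its sex-linked expression was thus female-type and that of the other 5 libraries male-type. The controls were alike in this and the CKO group was mixed. Mitochondrially encoded genes took 14.4% of reads in CKO 2 and 18.4% to 21.02% in the other 5. Cardiomyocyte markers identified the tissue (summed level of 7 genes 9583 to 10397 FPKM in the controls and 7633 to 10522 in CKO). Of the 7, Tnni3 was called lower (limma adjusted p = 0.0314). Ryr2 also had every CKO library below every control, without passing (adjusted p = 0.0543). The adipocyte markers Adipoq, Plin1, Cfd, Lep and Ucp1 summed to at most 0.839 FPKM. Of 4 atrial markers, Myl7 (56.6 to 244 FPKM in the controls and 24.1 to 40.7 in CKO, limma adjusted p = 0.0631), Myl4 (adjusted p = 0.0534) and Sln (0.0436) had every CKO library below every control, whereas Nppa had every CKO library above (83.5 to 191 and 518 to 2057 FPKM, adjusted p = 0.0185), and their summed level was 153 to 395 FPKM in the controls and 547 to 2100 in CKO. The 5 macrophage markers summed to 215 FPKM in CKO 1 against 47.8 to 102 FPKM in the others. Of 5 endothelial markers, Tie1 was called lower (limma adjusted p = 0.0302), and Cdh5 had every CKO library below every control without passing (0.182). With 1 library left out, the Tnni3, Tie1, Sln and Nppa calls were kept in 1, 0, 2 and 4 of 6 fits. None of 6 fibroblast and 5 smooth muscle and pericyte markers passed. Among these, Col1a1, Col1a2, Pdgfra and Cspg4 had every CKO library above every control. Whether these differences contribute to the values below was not tested.

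Of the 9 genes, 1 fell in CKO hearts, none rose and 8 did not pass (limma on log2(FPKM + 1), Benjamini-Hochberg adjusted p under 0.05 over all genes tested). Among all genes tested, 5.49% were lower and 5.69% higher by the same rule. Ivd was the gene that passed, at 0.544 times the control level. For 6 of the 9 genes (Ivd, Ppm1k, Mccc2, Bckdha, Bckdk and Dbt) every CKO library lay below every flox control, which was so for 17.4% of all genes tested; 16.9% of genes tested had every CKO library above every control, and none of the 9 did. The log2 fold change was negative for 8 of 9, with a median of -0.37 against 0.01 over all genes tested. The genes were chosen with earlier results of these data known, so these counts describe them and were not tested as a set. In bulk RNA, fewer cells of a type and less RNA per cell cannot be told apart.

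**Figure D1:**
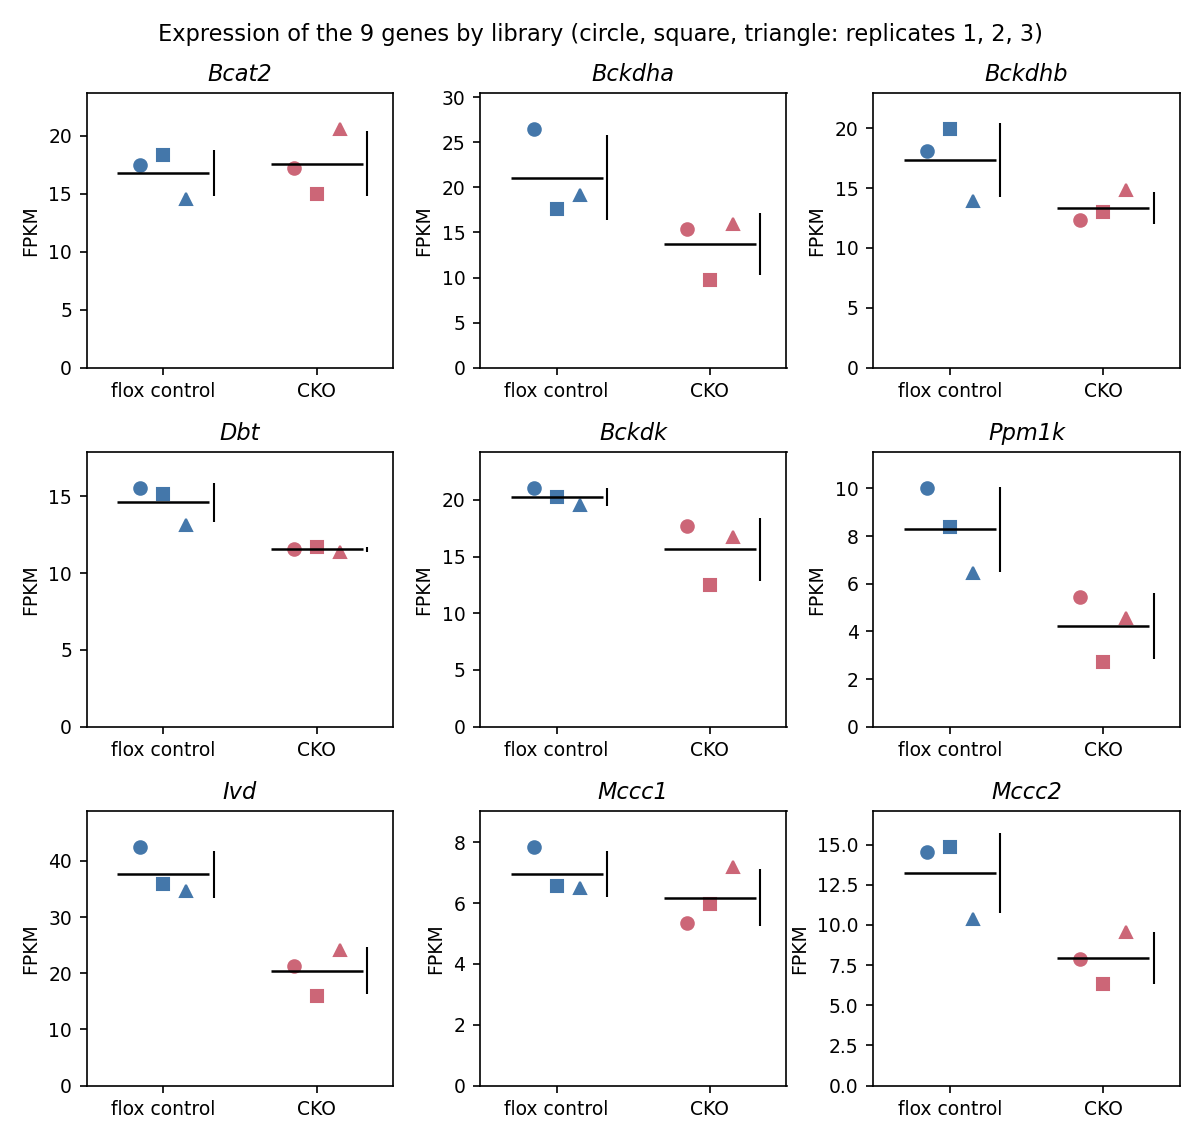
Each panel plots one gene, with FPKM on a linear axis from 0, 3 flox control libraries in blue and 3 CKO libraries in red (circle, square and triangle for replicates 1, 2 and 3), the mean as a horizontal line and the SD as a vertical bar. Ivd separates with a wide gap (34.7 to 42.4 against 15.9 to 24.2 FPKM), Dbt is nearly identical in the 3 CKO libraries (11.4 to 11.7 FPKM), and the groups overlap for Bcat2, Bckdhb and Mccc1.

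No difference was detected at the entry step. Bcat2 (ENSMUSG00000030826, GRCm38 chromosome 7, 45570153 to 45589711, plus strand), the mitochondrial branched-chain aminotransferase gene, measured 17.5, 18.3 and 14.6 FPKM in the controls and 17.2, 15.0 and 20.6 FPKM in the CKO hearts. The lowest library was a control and the highest a CKO, so the groups overlapped throughout. The log2 fold change was 0.06 (SE 0.14, limma adjusted p = 0.831), and its 95% interval ran from -0.28 to 0.40. Its cytosolic counterpart Bcat1 was low in every library (0.242 to 0.844 FPKM) and was not tested. Bcat2 shares 622 exonic bases with 0610005C13Rik on the opposite strand, listed at no more than 0.302 FPKM; strand marking is not described, so reads of such pairs cannot be told apart.

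The genes of the BCKDH core measured 0.649 to 0.792 times the control mean in CKO hearts, and none of the 3 passed. Bckdha (chromosome 7, 25629946 to 25658981, minus strand) encodes E1 alpha, the subunit that carries the regulatory phosphorylation. It measured 26.4, 17.6 and 19.2 FPKM in the controls and 15.4, 9.74 and 15.9 FPKM in the CKO hearts. The groups did not touch, yet the spread was wide in both: flox control 1 stood well above the other controls and CKO 2 well below the other CKO libraries. The log2 fold change was -0.60 (SE 0.22, limma adjusted p = 0.139). Bckdha shares 1171 exonic bases with B3gnt8 on the opposite strand, which was listed at 0.695 to 0.904 FPKM.

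Bckdhb (chromosome 9, 83925145 to 84124240, plus strand) encodes E1 beta, the partner of E1 alpha in the decarboxylase. It measured 18.1, 19.9 and 13.9 FPKM in the controls and 12.3, 13.0 and 14.9 FPKM in the CKO hearts (log2 fold change -0.34, SE 0.15, limma adjusted p = 0.193). Here flox control 3 fell inside the CKO range. Dbt (chromosome 3, 116513070 to 116549981, plus strand) encodes the E2 acyltransferase that forms the core of the complex. Its levels were 15.5, 15.2 and 13.1 FPKM in the controls and 11.6, 11.7 and 11.4 FPKM in the CKO hearts, a log2 fold change of -0.31 (SE 0.09, limma adjusted p = 0.0766). The CKO libraries of Dbt varied by 1.39% of their mean, the tightest of the 9 genes in CKO. The E3 subunit gene Dld, which also serves pyruvate and 2-oxoglutarate dehydrogenase, did pass: it fell from 131, 138 and 112 FPKM to 74.0, 80.8 and 88.8 FPKM (log2 fold change -0.64, limma adjusted p = 0.0275). That call was lost without any 1 of the 6 libraries, with adjusted p up to 0.112.

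In FPKM, a scale that corrects for gene length, ratios between the E1 and E2 transcripts overlapped between the groups. The ratio of Bckdhb to Dbt was 1.18 ± 0.128 in flox controls and 1.16 ± 0.128 in CKO (SD, n = 3 each). The ratio of Bckdha to Bckdhb was 1.24 ± 0.312 and 1.03 ± 0.254, with overlapping groups.

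The kinase and the phosphatase of the complex were both lower in every CKO library than in every control, to different degrees, without passing. Bckdk (chromosome 7, 127904082 to 127910221, plus strand) was steady among controls at 21.02, 20.2 and 19.5 FPKM and measured 17.7, 12.5 and 16.7 FPKM in the CKO hearts. Its log2 fold change was -0.37 (SE 0.14, limma adjusted p = 0.138). Ppm1k (chromosome 6, 57506502 to 57535468, minus strand) measured 10.01, 8.396 and 6.46 FPKM in the controls and 5.42, 2.71 and 4.57 FPKM in the CKO hearts, with between 318 and 1019 reads each. CKO hearts held 0.511 times the control mean of Ppm1k, the lowest ratio among the 9 genes, with the largest relative spread in CKO (32.7% of the mean). The log2 fold change was -0.85 (SE 0.23, limma adjusted p = 0.0651). Ppm1k passed without CKO 1 (adjusted p = 0.0396) and when libraries were rescaled to the same sum (0.0352), and over all alternatives its adjusted p lay between 0.0352 and 0.195.

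Per library, the ratio of Bckdk to Ppm1k was 2.10, 2.41 and 3.02 in the controls and 3.26, 4.60 and 3.65 in the CKO hearts. Every CKO heart thus held more kinase transcript per phosphatase transcript than any control, though flox control 3 and CKO 1 lay close together. Set against Bckdha, neither regulator separated the groups. The ratio of Bckdk to Bckdha was 0.986 ± 0.179 in flox controls and 1.16 ± 0.116 in CKO (SD, n = 3 each). That of Ppm1k to Bckdha was 0.397 ± 0.0723 and 0.306 ± 0.0401. The pairs of genes set against each other were chosen after their values were seen, and their ratios are given as descriptions with no test.

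**Figure D2:**
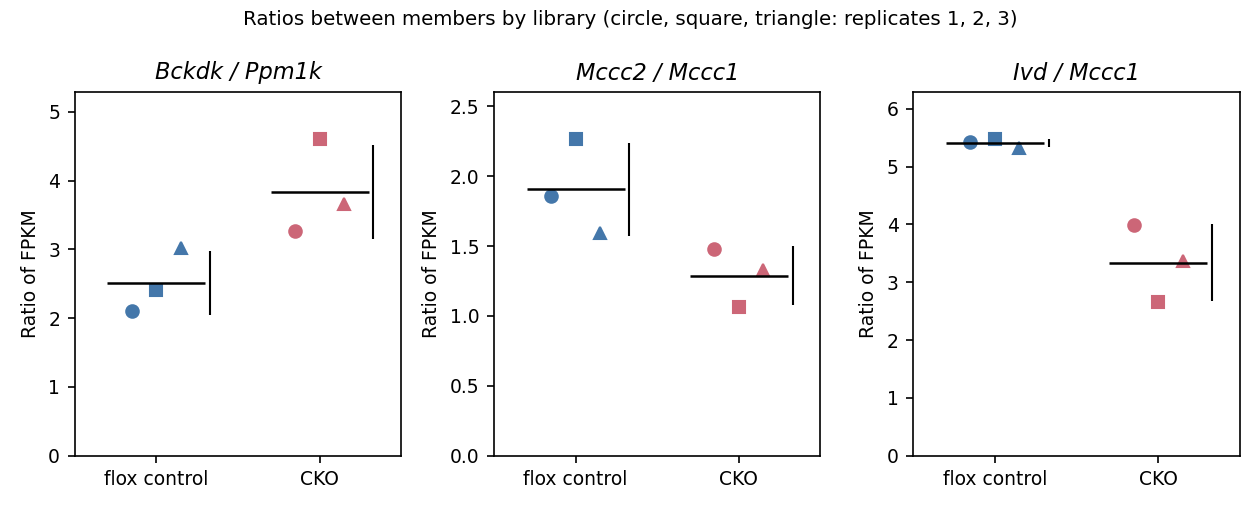
Ratios of FPKM between members are plotted for each library on linear axes from 0, with flox controls in blue, CKO in red, the mean as a line and the SD as a bar. The Bckdk to Ppm1k ratio is higher in the CKO libraries (means 2.51 and 3.84), and the Mccc2 to Mccc1 (1.90 and 1.29) and Ivd to Mccc1 (5.41 and 3.34) ratios are lower, with no overlap between groups.

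The leucine branch held the gene that passed. Ivd (ENSMUSG00000027332, chromosome 2, 118861954 to 118882909, plus strand) encodes isovaleryl-CoA dehydrogenase, a flavoprotein that oxidises isovaleryl-CoA. It was the most abundant of the 9 in controls, at 42.4, 35.9 and 34.7 FPKM, and fell to 21.3, 15.9 and 24.2 FPKM in the CKO hearts. Group means of 37.7 ± 4.19 and 20.5 ± 4.23 FPKM (SD, n = 3 each) rested on 1703 to 3950 reads in a library. The log2 fold change was -0.86 (SE 0.17, limma adjusted p = 0.0256), a value at or below which 2.56% of all genes tested lay. Leaving out flox control 1 (adjusted p = 0.1004), 2 (0.0712) or 3 (0.0702) ended the call, as did testing with no filter on low values (0.0563), and it was kept without CKO 1 (0.0356), CKO 2 (0.0434) or CKO 3 (0.0393).

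The carboxylase that follows is built from a biotin-carrying alpha subunit (Mccc1) and a carboxyltransferase beta subunit (Mccc2). Mccc2 (chromosome 13, 99948530 to 100015639, minus strand) measured 14.5, 14.8 and 10.4 FPKM in the controls and 7.90, 6.35 and 9.55 FPKM in the CKO hearts. The groups did not overlap, though flox control 3 came close to CKO 3, and the log2 fold change was -0.67 (SE 0.18, limma adjusted p = 0.0615). Mccc2 passed with a minimum mean of 5 FPKM (adjusted p = 0.0499) and with libraries rescaled to the same sum (0.0354). It passed in no fit that left out a library (adjusted p up to 0.189), nor with the replicate block (0.132) or with no filter on low values (0.128). Mccc1 (chromosome 3, 35959312 to 36000678, minus strand) measured 7.83, 6.56 and 6.50 FPKM in the controls and 5.35, 5.97 and 7.20 FPKM in the CKO hearts. CKO 3 reached into the control range, and the log2 fold change was -0.16 (SE 0.12, limma adjusted p = 0.467, 95% interval -0.45 to 0.14). Mccc1 overlaps exons of the antisense genes Gm15952 and Mccc1os, each listed at under 0.5 FPKM.

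Set against each other by library, the Mccc2 to Mccc1 ratio was 1.85, 2.26 and 1.60 in the controls and 1.48, 1.06 and 1.33 in the CKO hearts. The Ivd to Mccc1 ratio was 5.42, 5.47 and 5.33 in the controls, with an SD of 0.0718, and 3.99, 2.66 and 3.37 in CKO. Both sets of ratios separated the groups.

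Sequence upstream of the start is shown for Ivd, Ppm1k and Mccc2, the members with the lowest CKO to control ratios (0.544, 0.511 and 0.599). The sequences are from RefSeq, build GRCm38.p6, read 5′ to 3′ on the gene's strand, limited to bases before the annotated start and outside the deposited gene bounds. Capitals mark matches to CCAAT, the core of the CCAAT box, on either strand (ATTGG on the other). The windows are chr2:118861744-118861953 (plus strand, Ivd), chr6:57535488-57535737 (minus strand, Ppm1k) and chr13:100015640-100015889 (minus strand, Mccc2).
Ivd: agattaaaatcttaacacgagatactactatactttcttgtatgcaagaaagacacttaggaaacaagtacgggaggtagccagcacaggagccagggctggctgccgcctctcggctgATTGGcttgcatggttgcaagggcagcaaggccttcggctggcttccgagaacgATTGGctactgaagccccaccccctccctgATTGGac
Ppm1k: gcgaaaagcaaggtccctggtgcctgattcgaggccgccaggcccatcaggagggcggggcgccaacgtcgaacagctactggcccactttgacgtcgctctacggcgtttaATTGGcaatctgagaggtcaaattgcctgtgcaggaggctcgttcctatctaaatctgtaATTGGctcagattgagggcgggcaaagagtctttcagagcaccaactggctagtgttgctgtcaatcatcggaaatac
Mccc2: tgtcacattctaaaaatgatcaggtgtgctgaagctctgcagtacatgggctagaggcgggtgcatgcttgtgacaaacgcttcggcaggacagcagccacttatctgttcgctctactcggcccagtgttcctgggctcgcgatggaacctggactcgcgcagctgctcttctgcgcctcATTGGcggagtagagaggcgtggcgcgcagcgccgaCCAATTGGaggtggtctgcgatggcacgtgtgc

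The Ivd stretch holds 3 matches, all as ATTGG, and 1 more lies in the 250 bases before the RefSeq start but inside the deposited gene bounds. Ppm1k holds 2 and Mccc2 holds 3, of which the last pair overlaps in a palindrome. RefSeq windows were found for 8 members: over the 250 bases before the start, Mccc1 had 3 matches, Bckdhb 2, Bckdk 1, and Bckdha and Bcat2 none. Bcat2 and Bckdhb each have a further annotated start, whose windows held none. CCAAT was found in 34.9% of the 11287 windows of tested genes, at least 2 matches in 12.9%, at least 3 in 4.29% and at least 4 in 1.40%. Mccc1, whose groups overlapped, thus had as many matches as Mccc2. The GC box GGGCGG was found in 58.1% of these windows and in those of Bckdhb, Ppm1k and Mccc1. The estrogen-related receptor element TNAAGGTCA (0.638% of windows) and the ATF4 composite element TGATGNAA (1.99%), searched on both strands with N as any base, were in no member window. A match is a description of letters in this window.

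Most of the remaining pathway genes had lower means in CKO hearts, with a negative log2 fold change in 21 of 25. Of these 25 other BCAA pathway genes tested, 10 fell, 1 rose and 14 did not pass, and 14 had every CKO library below every control, against the 5.49% called lower and 17.4% fully below among all genes tested. Their median log2 fold change was -0.44. The count of 11 calls dropped to 2 to 6 without any 1 library.

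The propionyl-CoA steps, shared by isoleucine and valine and ending in the citrate cycle as succinyl-CoA, had the most calls. Of 7 genes, 5 fell, and all 7 had every CKO library below every control. Pcca, the biotin-carrying subunit of propionyl-CoA carboxylase, fell from 11.2, 11.8 and 8.13 FPKM to 3.96, 4.46 and 5.95 FPKM (log2 fold change -0.97, SE 0.18, limma adjusted p = 0.0212). Its partner Pccb fell from 43.7, 38.7 and 40.4 FPKM to 24.7, 22.6 and 31.9 FPKM (-0.63, adjusted p = 0.0388). Mmaa and Mmab, which prepare and deliver the cobalamin cofactor of methylmalonyl-CoA mutase, fell to 0.538 and 0.518 times the control level. Mmaa went from 4.40, 4.67 and 4.52 FPKM to 2.57, 2.32 and 2.42 FPKM (limma adjusted p = 0.00624), and Mmab from 6.56, 6.17 and 5.86 FPKM to 3.37, 2.87 and 3.398 FPKM (0.006625). These 2 calls were kept without each library in turn, whereas Pcca was called in 3 and Pccb in 1 of those 6 fits. The remaining call, the mutase gene Mut (limma adjusted p = 0.0419), was kept in 0 of the 6. It was also lost with the replicate block (0.0926), with no filter on low values (0.0779) and after rescaling (0.0549). Pcca shares 241 exonic bases with Ggact on the opposite strand.

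In the isoleucine and valine branches 2 of 9 genes fell and 7 did not pass. Acad8, the isobutyryl-CoA dehydrogenase of valine, fell from 13.4, 12.2 and 11.2 FPKM to 8.14, 7.38 and 9.18 FPKM (log2 fold change -0.52, limma adjusted p = 0.0307). Hibadh, the 3-hydroxyisobutyrate dehydrogenase, fell from 21.3, 21.8 and 17.2 FPKM to 11.9, 13.0 and 14.7 FPKM (-0.57, adjusted p = 0.0350). Hibch, the hydrolase between them, measured 11.5, 12.0 and 10.4 FPKM and 7.19, 7.66 and 10.01 FPKM without passing (adjusted p = 0.0920). Each of the 2 calls was kept in only 1 of the 6 fits that leave out a library.

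The last steps of leucine breakdown held no call among 3 genes. Acat1, the mitochondrial thiolase shared with ketone use, measured 170, 167 and 134 FPKM in the controls and 105, 100.3 and 129 FPKM in the CKO hearts (limma adjusted p = 0.0894). Auh, the methylglutaconyl-CoA hydratase, measured 5.47 ± 0.547 and 4.27 ± 0.904 FPKM (adjusted p = 0.216).

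Electrons from IVD and the other acyl-CoA dehydrogenases pass to the electron transfer flavoprotein, and 2 of 3 genes of that relay fell. Etfa fell from 285, 276 and 223 FPKM to 158, 134 and 167 FPKM (log2 fold change -0.76, limma adjusted p = 0.0272), and Etfb from 82.5, 82.8 and 67.9 FPKM to 54.0, 41.2 and 52.9 FPKM (-0.65, adjusted p = 0.0382). With 1 library left out, Etfa passed in 2 of 6 fits (limma adjusted p up to 0.110) and Etfb in 1 of 6 (up to 0.137), and neither passed with the replicate block (0.0874 and 0.0938) or with no filter on low values (0.0588 and 0.0727). Etfdh, the oxidoreductase that hands the electrons to ubiquinone, overlapped between groups (adjusted p = 0.168). Etfb shares 617 exonic bases with Gm45233 on the same strand (at most 0.181 FPKM), and Etfdh 278 with 4930579G24Rik on the opposite strand (at most 2.15 FPKM). Of the biotin genes, Btd did not pass (adjusted p = 0.495) and Hlcs was below the filter.

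**Figure D3:**
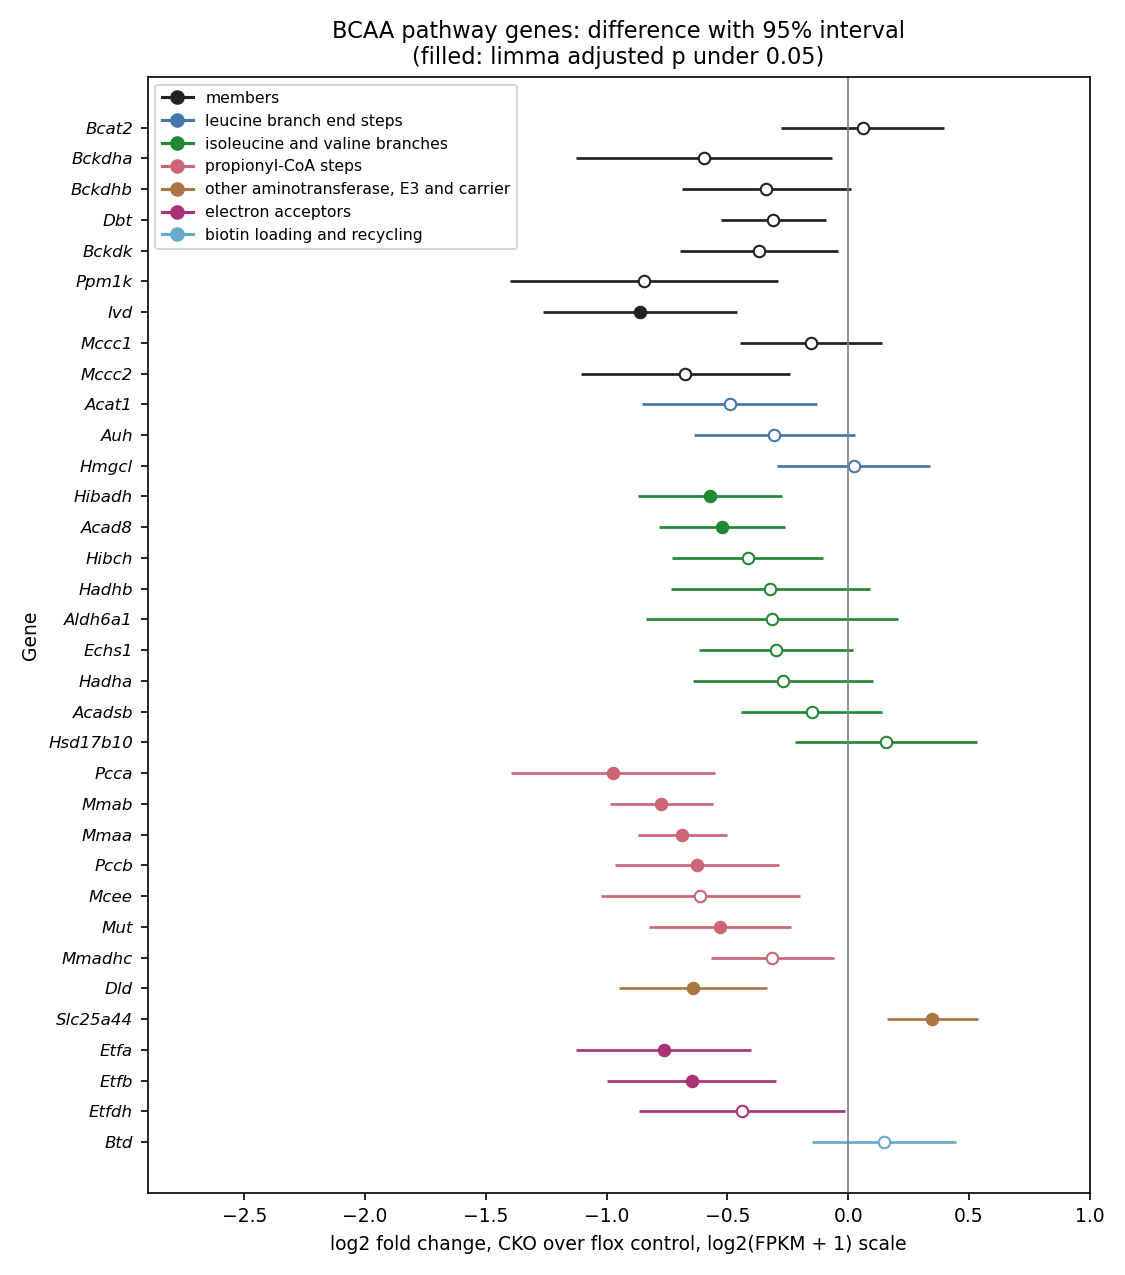
Points give the log2 fold change of CKO over flox control on the log2(FPKM + 1) scale for the 9 members and the 25 other pathway genes tested, with 95% intervals from limma as lines, filled where the adjusted p is under 0.05. Most points lie left of 0, Ivd is the only filled point among the members, and Slc25a44 is the only filled point to the right.

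The transporter genes that passed were higher. Slc25a44, the carrier that brings BCAA into mitochondria, rose from 6.35, 7.13 and 6.83 FPKM to 8.61, 8.85 and 9.19 FPKM (log2 fold change 0.35, SE 0.08, limma adjusted p = 0.0388), a call lost without any 1 library (adjusted p up to 0.141). Of 4 plasma membrane transporter genes tested, 1 rose. Slc7a5, the light chain of the large neutral amino acid exchanger, rose from 2.54, 4.44 and 2.10 FPKM to 8.24, 10.7 and 16.2 FPKM (1.66, SE 0.29, adjusted p = 0.0181), and the call was kept in 3 of the 6 fits that leave out a library. Its heavy chain Slc3a2 measured 11.05, 19.7 and 10.2 FPKM and 17.6, 22.4 and 26.6 FPKM, with flox control 2 inside the CKO range (adjusted p = 0.140). Slc7a8 (adjusted p = 0.763) and Slc43a2 (0.927) did not pass.

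No gene passed among 5 regulators reported to act on BCAA genes. Esrra measured 64.6, 66.7 and 64.8 FPKM in the controls and 57.2, 53.4 and 59.1 FPKM in the CKO hearts (log2 fold change -0.21, limma adjusted p = 0.203), and Ppara 3.53 ± 0.745 and 2.58 ± 0.481 FPKM (adjusted p = 0.233). Esrra shares 73 exonic bases with Trmt112 on the opposite strand. Klf15, a Kruppel-like factor that promotes BCAA catabolic genes in mouse heart and was singled out after its values were seen, measured 17.2, 15.0 and 7.23 FPKM in the controls and 9.65, 5.86 and 11.5 FPKM in the CKO hearts. Flox control 3 was below 2 of the 3 CKO libraries, and the adjusted p was 0.439.

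The pyruvate and 2-oxoglutarate dehydrogenase complexes are built on the same plan as BCKDH, and pyruvate dehydrogenase has its own kinases and phosphatases. Of 12 genes tested, 3 fell and 1 rose, against 5.49% and 5.69% of all genes tested, with a median log2 fold change of -0.48. Every CKO library lay below every control for 7 of the 12 and above for 2, against 17.4% and 16.9% of all genes tested. The E2 genes Dlat (log2 fold change -0.74, limma adjusted p = 0.0179) and Dlst (-0.60, 0.0307) fell, but with 1 library left out Dlat passed in 3 of 6 fits (adjusted p up to 0.0826) and Dlst in 0 of 6 (up to 0.113). With the replicate block neither passed (0.0662 and 0.0829), and after rescaling to the same sum Dlst did not (0.0688). Pdk3, a pyruvate dehydrogenase kinase gene, rose from 2.56, 3.02 and 3.49 FPKM to 9.58, 11.8 and 16.6 FPKM (1.74, adjusted p = 0.00620), and the phosphatase gene Pdp2 fell from 3.24, 3.75 and 3.18 FPKM to 1.66, 1.53 and 1.37 FPKM (-0.80, adjusted p = 0.00762). The Pdk3 and Pdp2 calls were kept without each library in turn. Pdk3 was the least abundant of the 4 kinase genes in the controls. Pdk2 measured 125, 105 and 109 FPKM in the controls and 93.7, 51.4 and 83.0 FPKM in CKO without passing (limma adjusted p = 0.144). Pdk4 overlapped between groups (means 370 and 229 FPKM, adjusted p = 0.793). Pdk1 had every CKO library above every control without passing (0.0706). Citrate cycle genes had 7 of 15 called lower, against 5.49% of all genes tested, and a median of -0.55. For 11 of the 15 every CKO library lay below every control, against 17.4% of all genes tested. Idh3b, Sucla2, Fh1 and Sdhc had the smallest adjusted p (0.00859 to 0.0348). With 1 library left out, Idh3b was called in 6 of 6 fits, Sucla2 in 5, Fh1 in 1 and Sdhc in 0. Of the biotin carboxylases outside the pathway, Acacb did not pass (adjusted p = 0.299) and Acaca was below the filter. Pyruvate carboxylase was sought only by the symbol Pc, which gave no entry, so its level was not examined. Whether members differ from these lists was not tested.

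The same libraries were often at the ends of the range for different members. Flox control 1 was the highest control for 6 of 9 members and flox control 3 the lowest for 8. Among CKO hearts, CKO 2 was the lowest for 6 and CKO 3 the highest for 6. In percent of the flox control mean, the median over the 9 members was 110% in flox control 1, 101% in flox control 2, 89.9% in flox control 3, 73.1% in CKO 1, 61.6% in CKO 2 and 78.1% in CKO 3. Within each group these medians ran in the order of the FPKM summed over all genes. That sum was 445573, 433497 and 398260 in the controls and 424778, 351431 and 461435 in CKO, so the order is not particular to the members. CKO 2 was also the library with the lowest mitochondrially encoded share (14.4%), and CKO 3 the only one with female-type sex-linked expression. A part of any of these in the members' levels was not tested.

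**Figure D4:**
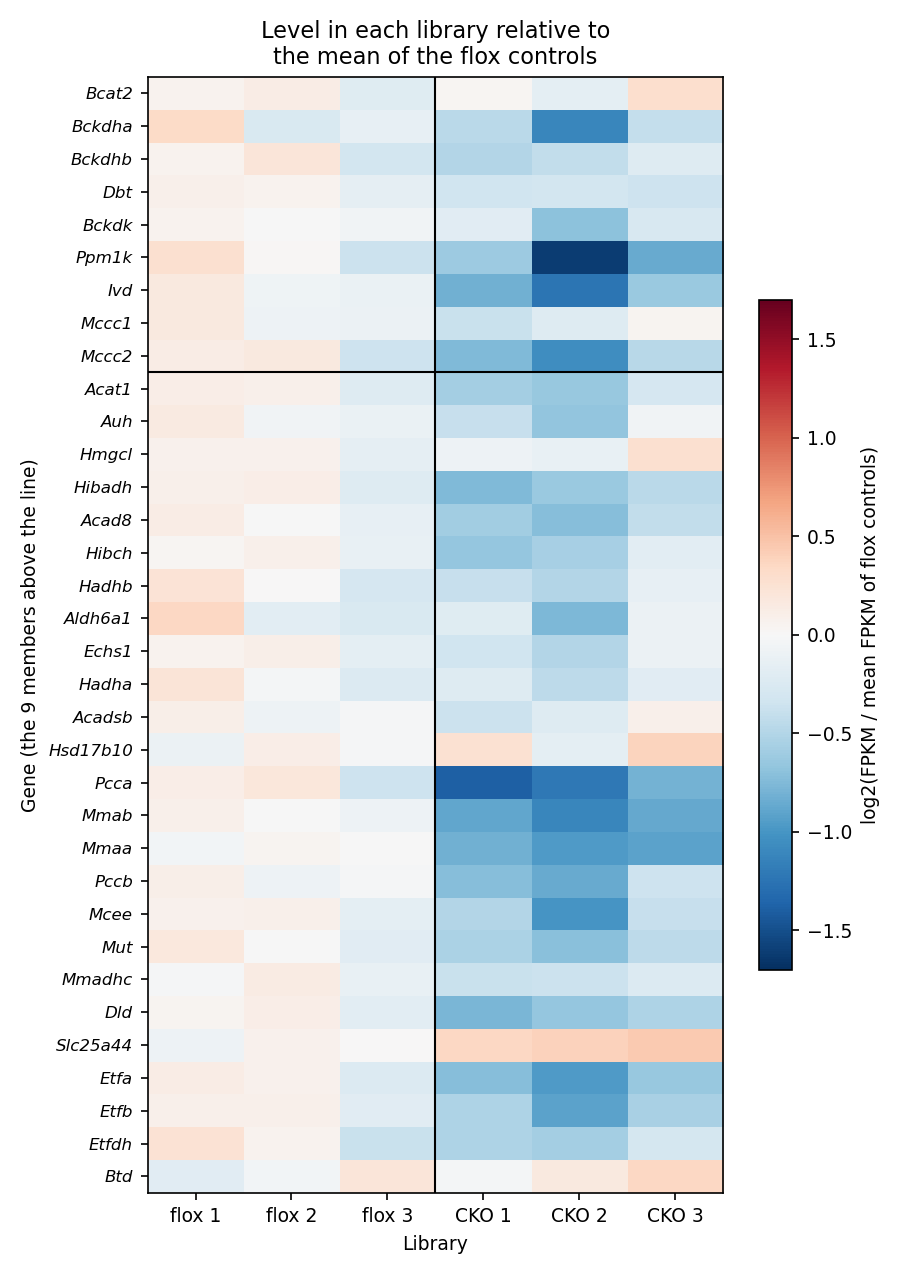
Colours give log2 of FPKM over the mean FPKM of the 3 flox controls for each gene (rows) in each library (columns), blue for lower and red for higher. CKO 2 holds the deepest blue for Ppm1k (32.7% of the control mean), Ivd (42.2%), Bckdha (46.2%) and Mccc2 (47.9%), and the Slc25a44 row is red in all 3 CKO libraries.

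Profiles of other tested genes outside the lists were compared with each member over the 6 libraries, as the root mean square difference of centred log2(FPKM + 1). The nearest gene to Ppm1k was Cpt2 (difference 0.0816), the carnitine palmitoyltransferase of the inner mitochondrial membrane. The nearest to Bckdk was the pseudogene Got2-ps1 (0.0248), to Dbt Foxn3 (0.0285), to Bcat2 Pex16 (0.0319), to Mccc1 Prkar2a (0.0335), to Bckdhb Ehd1 (0.0452) and to Bckdha Efcab2 (0.0909). Ivd was nearest to Gm43597 (0.0622) and Mccc2 to Gm12350 (0.0649). Gm43597 (0.634 to 2.65 FPKM), Gm12350 (1.45 to 3.94) and Got2-ps1 (1.35 to 2.84) were low, and this scale understates changes of low genes. Each gene named is the closest of all those compared, and no test was made of the likeness. Among the members themselves, the closest to Ivd was Ppm1k (0.159), followed by Mccc2 (0.160), and the farthest was Bcat2 (0.475).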

How the data were processed

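RNA of 6 mouse hearts was selected with poly-T beads, per the labels' protocols. The deposited FPKM values, 1 column per library, were made by the authors; the submitters' processing notes name CASAVA, HISAT2 2.0.5, featureCounts 1.5.0-p3, DESeq2 1.20.0 and GRCm38.p6, with no role for each. Multiplied by gene length, each library's values were whole multiples of 1 step (tolerance 0.001), which gave back the reads. The scaling factor was not the sum of these reads. The step implied a denominator of 1.69e+07 against 17748541 reads in flox control 1, and 1.95e+07 against 17872221 in CKO 2. Where the mean over libraries reached 1 FPKM, log2(FPKM + 1) entered a linear model in limma 3.58.1 (R 4.3.3; variance trend, genotype as the only factor, Benjamini-Hochberg adjusted p under 0.05, two-sided); the procedure was also tested on simulated data. Fold changes on this scale understate changes of low genes. Ratios are of mean FPKM. Members and lists were chosen with earlier results of these data known. Genes named by rule are Ythdc1, the 9 members, up to 4 genes per list with the smallest adjusted p (2 where none passed) and the gene nearest in profile to each member. Outside this rule, Mut, Klf15, Pdk1, Pdk2 and Pdk4 are also named, as are marker, sex-linked, overlapping and untested genes. Gene bounds equalled those of GENCODE M21. The labels call the animals independent biological replicates. Tables and figures used Python 3.11.15, numpy 2.4.6, pandas 2.3.3, scipy 1.17.1 and matplotlib 3.10.9. Alternatives covered the pseudocount, filter, scaling, variance trend, voom on recovered reads (added after the data were seen), a replicate block and each library left out. Splicing was not analysed here.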

Additional observations from a re-analysis of the deposited data

How the results depend on the processing

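Over 13 alternatives the log2 fold change kept its sign for every member except Bcat2, which ranged from -0.0524 (without CKO 3) to 0.1623 (without CKO 2) and was also negative without flox control 3 (-0.0342). Ivd was called under 9 of 13, Ppm1k and Mccc2 under 2 each, and the other 6 members under none. With no filter on low values, which tests more genes, 798 genes, 0 members and 2 other pathway genes were called, against 1358, 1 and 11. A minimum mean of 5 FPKM called 2 members, and libraries rescaled to the same sum called 3, with 42.9% of all calls lower against 49.1% as reported; the cause was not tested. Correlations of deviations between same-numbered libraries of the 2 groups were 0.139, 0.060 and -0.005, and between differently numbered ones -0.231 to 0.141. With 3 libraries per group, this check cannot decide whether the numbers pair the libraries. With the replicate block, 715 genes, 1 member and 2 other pathway genes were called, Ivd among them (limma adjusted p = 0.0479), while Ythdc1 was not (0.0542). Leaving out 1 library at a time called 316 to 1492 genes, 0 to 2 members and 2 to 6 other pathway genes, and Ythdc1 lost its call without flox control 1 (0.0712), flox control 3 (0.0648) or CKO 3 (0.0540), as it did after rescaling (0.0903). The planned count tests edgeR and DESeq2 were not run, since the deposited unit is FPKM; voom on recovered reads called 1427 genes, 1 member and 11 other pathway genes.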
